A study of Homo sapiens with 12 samples.

Results

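The 10 genes described here encode the core of the human pathways that detect DNA and RNA in the cytosol: CGAS, STING1, ENPP1, RIGI, IFIH1, MAVS, TBK1, IRF3, TREX1 and SAMHD1. They were chosen by symbol, and each matched 1 row among the 60605 genes measured in SBC5 cells, a human line from a small cell lung cancer (genotype WT per the labels). Cells of 4 groups were collected 3 days after treatment. The combination group received 1 µM olaparib, an inhibitor of PARP1 and PARP2, and 2 hours later 4 Gy of gamma radiation. The radiation group received the solvent DMSO and 4 Gy, the olaparib group 1 µM olaparib and no radiation, and the vehicle group DMSO and no radiation. Each group had 3 total RNA libraries, and the labels do not say whether they came from separate cultures, so p-values measure only the spread between these libraries.

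Cytosolic DNA, which can leak from damaged nuclei, is bound by cGAS. The enzyme then makes the cyclic dinucleotide cGAMP, which binds STING on the endoplasmic reticulum. RNA with double-stranded stretches is bound by RIG-I (RIGI) or MDA5 (IFIH1), which signal through MAVS on mitochondria. Both routes meet at the kinase TBK1 and the transcription factor IRF3, which switches on IFNB1, the gene for interferon beta. TREX1 degrades cytosolic DNA, SAMHD1 hydrolyses deoxynucleotides, and ENPP1 breaks down cGAMP outside the cell.

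The smallest library held 14300459 counts and the largest 38804959. In 3 libraries, olaparib 2, olaparib 3 and radiation 3, genes that should be silent carried counts: 404 olfactory receptor genes summed to 1897, 2098 and 920.2 CPM (counts divided by the library total, on the standard CPM scale; gene levels below also carry TMM scaling), against 354.7 to 501.4 in the other 9. These 3 libraries are kept apart, and the tests use the other 9 (3 combination, 2 radiation, 1 olaparib and 3 vehicle). The lone olaparib library is assumed to vary like the others. Within the 9, the combination libraries had higher olfactory receptor sums than the vehicle libraries. The sums were 501.4, 461.3 and 474.5 CPM in the combination and 432.6, 410.8 and 354.7 CPM in vehicle, without overlap. The combination libraries were also smaller, at 19441478, 20566024 and 19577861 counts, against 27007693, 33650772 and 34103877 in vehicle. The part of these differences in combination versus vehicle was not tested within the 9. Among small cell lung cancer markers, YAP1 (120 CPM in vehicle) and SYP (24.1 CPM) were clearly present. NEUROD1 (1.89 CPM) and POU2F3 (0.682 CPM) were low, and NCAM1, CHGA and INSM1 were between 0 and 0.503 CPM in vehicle. The leukocyte marker PTPRC was at 1.49 CPM in vehicle, and CD68 at 86.7 CPM made up most of the leukocyte marker sum.

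The promoters of 3 genes on these routes are shown because IFNB1 is what IRF3 drives, and RIGI and IFIH1 are themselves interferon targets. RefSeq's table (GRCh38.p14) held promoters for 7 of the 10 genes. Printed are the 170 bases before each transcription start, 5′ to 3′ on the gene's strand. Capitals mark matches, on either strand, to the interferon response motif (GAAA and GAAA with any 2 bases between them) or the NF-kB motif (GGGA and TTCC with any 2 bases between them).
IFNB1, chr9:21077943-21078112, minus strand: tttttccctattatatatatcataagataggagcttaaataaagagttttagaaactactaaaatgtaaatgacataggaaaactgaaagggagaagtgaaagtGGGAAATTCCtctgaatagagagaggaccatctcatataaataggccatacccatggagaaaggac
IFIH1, chr2:162318685-162318854, minus strand: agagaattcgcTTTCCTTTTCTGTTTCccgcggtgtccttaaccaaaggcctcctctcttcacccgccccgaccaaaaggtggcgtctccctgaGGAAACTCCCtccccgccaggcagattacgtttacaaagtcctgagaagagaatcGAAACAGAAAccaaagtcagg
RIGI, chr9:32526197-32526366, minus strand: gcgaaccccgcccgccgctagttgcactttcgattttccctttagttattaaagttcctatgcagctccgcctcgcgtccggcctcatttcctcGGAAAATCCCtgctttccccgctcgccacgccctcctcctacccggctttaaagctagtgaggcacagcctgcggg

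In the full 250 bases before the start, IFIH1 held 3 matches to the interferon response motif, 2 of which overlap, and IFIH1, RIGI and IFNB1 held 1 match each to the NF-kB motif. The promoters of TREX1, ENPP1, TBK1, MAVS and SAMHD1 held no match to either. Of all 35116 promoters in the table, 3.02% held the first motif and 1.4% the second. A match is a description of the letters and not evidence of binding. Both patterns are strict, so the lack of a match is not evidence that a site is absent. This holds for the first motif in IFNB1 and RIGI.

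Most of the sensing machinery was expressed in vehicle cells, while STING1 was close to 0 and the level of TREX1 could not be set apart from that of an overlapping gene, ATRIP. In bulk RNA, fewer cells expressing a gene and less RNA per cell cannot be told apart. Of the 10 genes, 8 averaged at least 1 CPM in vehicle. To set genes beside each other, levels were divided by the length of the principal transcript in GENCODE 29 (CPM per kb). TBK1 had the highest level, at 36.1 CPM per kb (SD 2.17, n = 3), above 96.3% of the 29680 tested genes with a length. CGAS followed at 9.51 CPM per kb (SD 0.888, n = 3), and its libraries (8.53 to 10.3) did not overlap those of TBK1 (34.3 to 38.6) or of any gene below.

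IRF3 (4.24 CPM per kb), MAVS (4.09) and SAMHD1 (3.92) came next and could not be ordered, since their library ranges overlapped. RIGI was at 2.86 CPM per kb (2.71 to 3.03 over libraries) and ENPP1 at 2.68 (2.56 to 2.75), again overlapping. IFIH1, the second RNA sensor, was far lower, at 0.349 CPM per kb (0.207 to 0.458). STING1 stood at 0.0738 CPM per kb (0 to 0.221), above 6.84% of those genes, and the deposited estimate for TREX1 was 0 in all 3 vehicle libraries, which gives it no place in this order because its counts may have been assigned to ATRIP.

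**Figure D1:**
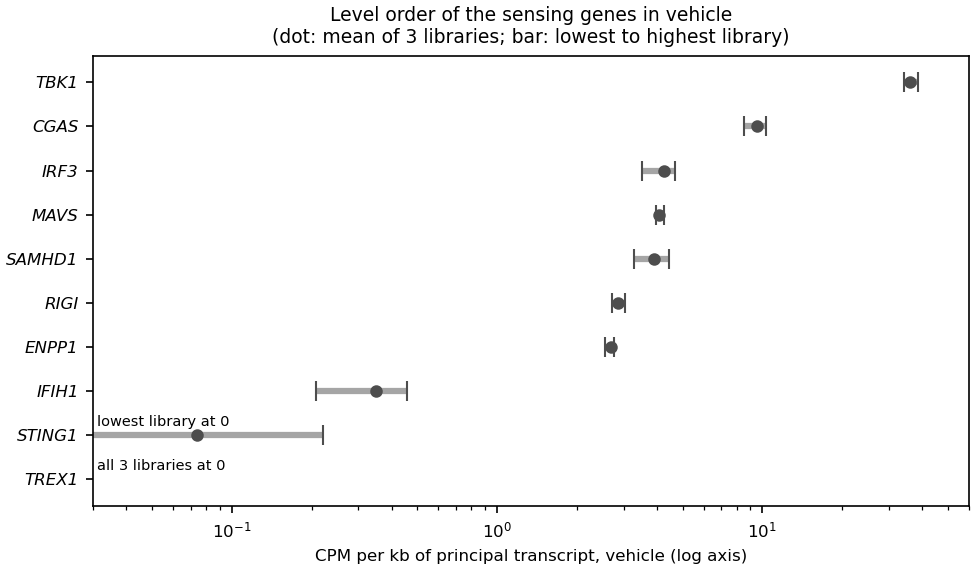
Levels of the 10 genes in vehicle, in CPM per kb of principal transcript on a log axis; dots are means of 3 libraries and bars run from the lowest to the highest library. TBK1 (36.1) and CGAS (9.51) lie above a group between 2.68 and 4.24, while IFIH1 (0.349) and STING1 (0.0738) lie below it, and TREX1 is drawn at its deposited estimate of 0, which depends on the split of counts with ATRIP.

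On the DNA route, CGAS was well expressed and STING1 was not, and neither passed a test. CGAS, the sensor, had 35, 33.4 and 37.3 CPM in the combination libraries, 39.3 and 31.3 CPM in radiation, 29.6 CPM in olaparib, and 31, 32.6 and 27.1 CPM in vehicle. All 3 combination libraries lay above all 3 vehicle libraries, while the radiation libraries straddled them. The log2 change was 0.22 (SE 0.111) in combination versus vehicle, with an adjusted p of 0.352 by edgeR's quasi-likelihood test over 30967 genes. It was also 0.22 (SE 0.123, adjusted p = 0.579) in radiation versus vehicle. In combination versus radiation it was -0.00, with an interval of -0.24 to 0.24 (95% normal interval from the SE, as are those below). With library size as the only scaling, CGAS passed in combination versus vehicle (log2 0.42, adjusted p = 0.00721) and in the test over the 4 groups, a setting that also moved the median change of all genes to 0.22, against 0.02 with TMM scaling.

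STING1, the cGAMP receptor, was counted 4, 27 and 15 times in the combination libraries, 7 and 4 times in radiation, 21 times in olaparib, and 10, 0 and 0 times in vehicle. These are 0.195, 1.21 and 0.713 CPM in the combination and 0.392, 0 and 0 CPM in vehicle, so the groups overlapped. Its log2 change against vehicle was 2.45 (SE 1.24, adjusted p = 0.353) in the combination, 0.59 (SE 1.36, adjusted p = 0.957) in radiation and 2.10 (SE 1.52, adjusted p = 1) in olaparib. Without vehicle 1 the fitted change was 7.30 with an adjusted p of 0.0257. That value depends on the prior count, because the remaining vehicle libraries had 0 counts, which allow up to 0.095 and 0.096 CPM (3 counts per library). The counts differed widely between libraries of the same group.

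ENPP1, the hydrolase of extracellular cGAMP, was 1 of 2 genes of the 10 that passed the test. It had 16.4, 12.1 and 14.4 CPM in the combination libraries, 15.6 and 15.7 CPM in radiation, 17 CPM in olaparib, and 19, 20.5 and 20.4 CPM in vehicle. Every treated library lay below every vehicle library. ENPP1 fell in combination versus vehicle (14.3 ± 2.16 against 20 ± 0.802 CPM, SD, n = 3 each; log2 -0.48, SE 0.151, adjusted p = 0.045). In radiation versus vehicle the change was -0.35 (SE 0.167, adjusted p = 0.485) and in olaparib versus vehicle -0.24 (SE 0.211, adjusted p = 1). In combination versus radiation it was -0.13, with an interval of -0.46 to 0.20.

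On the RNA route MAVS passed the test and neither sensor did. MAVS, the mitochondrial adapter, had 40.2, 38.6 and 35.9 CPM in the combination libraries, 43.8 and 39.3 CPM in radiation, 44.3 CPM in olaparib, and 46.6, 47.3 and 49.9 CPM in vehicle. Again every treated library was below every vehicle library. How many of all genes show this pattern, seen in both ENPP1 and MAVS, was not counted. MAVS fell in combination versus vehicle (38.2 ± 2.18 against 47.9 ± 1.71 CPM, SD, n = 3 each; log2 -0.33, SE 0.0996, adjusted p = 0.0383). Its change was -0.20 (SE 0.111, adjusted p = 0.571) in radiation versus vehicle, -0.11 (SE 0.139, adjusted p = 1) in olaparib versus vehicle and -0.12 (SE 0.111, adjusted p = 0.817) in combination versus radiation.

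The calls of MAVS and ENPP1 lay near the threshold. MAVS lost its call without any 1 of the 6 combination and vehicle libraries (adjusted p = 0.0521 to 0.178), and ENPP1 without combination 2 or 3 or any vehicle library (0.0751 to 0.237). MAVS and ENPP1 also lost it with limma-voom (0.0762 and 0.0602), with library size only (0.558 and 0.302), with all 12 libraries (1 for both) and with all 12 when the olfactory receptor sum entered as covariate (0.139 and 0.098), and ENPP1 with DESeq2 size factors (0.0522). The changes of MAVS and ENPP1 were negative in each alternative run. The fit to all 12 libraries called only 1 of all genes in combination versus vehicle, so calls lost there are not particular to MAVS and ENPP1. Over the alternatives, the adjusted p ran from 0.0196 to 1 for MAVS and from 0.0275 to 1 for ENPP1. The sum of 8 small cell lung cancer markers was also lower in the combination. On the scale of all 12 libraries it was 111 to 128 CPM there and 154 to 167 CPM in vehicle. INSM1 was at 0 in every vehicle library and in combination 1 and 2. CHGA was at 0 in vehicle 1 and 2 and in no combination library. The part of these markers in the result was not tested.

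RIGI, the sensor of short RNA with a 5′ triphosphate, had 17.6, 11.7 and 9.5 CPM in the combination libraries, 9.53 and 11.7 CPM in radiation, 11.8 CPM in olaparib, and 13.2, 12.4 and 11.8 CPM in vehicle. The spread within the combination covered the whole range of the other groups. Its change was 0.06 (SE 0.181, adjusted p = 0.96) in combination versus vehicle, with an interval of -0.30 to 0.41, and -0.23 (SE 0.203, adjusted p = 0.807) in radiation versus vehicle. Combination 1 set the sign of the first value, which was -0.23 without it.

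IFIH1, the sensor of long double-stranded RNA, was counted 33, 40 and 25 times in the combination libraries, 80 and 21 times in radiation, 32 times in olaparib, and 19, 52 and 43 times in vehicle. Radiation 1 and radiation 2 were its highest library and one of its lowest, at 2.67 and 0.77 CPM. The change was 0.28 (SE 0.515) in combination versus vehicle and 0.45 (SE 0.563) in radiation versus vehicle, with adjusted p-values of 0.916 and 0.895. Without radiation 1 the change in radiation versus vehicle was -0.71, so its sign rests on that library.

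At the point where both routes meet, neither gene passed in any comparison. TBK1, the kinase, had 122, 114 and 122 CPM in the combination libraries, 137 and 127 CPM in radiation, 120 CPM in olaparib, and 126, 112 and 116 CPM in vehicle. Its change in combination versus vehicle was 0.02 (SE 0.0766, adjusted p = 0.968), and the interval of -0.13 to 0.17 is the narrowest of the 9 tested genes. In radiation versus vehicle it was 0.17 (SE 0.085, adjusted p = 0.53), with both radiation libraries above all vehicle libraries. IRF3, the transcription factor, ran from 6.23 to 8.98 CPM in the combination, 6.49 to 8.97 CPM in radiation and 6.15 to 8.13 CPM in vehicle, with 6.47 CPM in olaparib. Its change was 0.11 (SE 0.221, adjusted p = 0.927) in combination versus vehicle, with an interval of -0.32 to 0.54. Phosphorylation, which switches both proteins on, is not measured by RNA counts.

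Of the genes that limit the substrates, SAMHD1 ran from 20.6 to 22 CPM in the combination, 19.2 to 21 CPM in radiation and 17.3 to 23.5 CPM in vehicle, with 18.8 CPM in olaparib. Its change in combination versus vehicle was 0.03 (SE 0.138, adjusted p = 0.976), with an interval of -0.24 to 0.30. TREX1, the DNA exonuclease, was counted 0, 6 and 0 times in the combination libraries, 7 and 0 times in radiation, 6 times in olaparib and 0 times in each vehicle library, too few to be tested. These counts must be read with those of ATRIP, a checkpoint gene whose annotated transcripts run on through TREX1. Of the 1649 distinct 31-base words in the TREX1 transcripts of GENCODE 29, 1485 (90.1%) also occur in ATRIP, so estimated counts can be shared between them. ATRIP itself had 87, 86 and 117 counts in the combination libraries, 74 and 63 in radiation, 137 in olaparib, and 86, 96 and 75 in vehicle. Library sizes differ, and in CPM ATRIP was at 4.24, 3.86 and 5.56 in the combination and 3.37, 3.04 and 2.4 in vehicle. Its change did not pass by edgeR in combination versus vehicle (log2 0.63, SE 0.317, adjusted p = 0.347) or combination versus radiation (0.93, SE 0.364, adjusted p = 0.321). The sum of both genes, 63 to 143 counts per library of the 9, is an upper bound on TREX1 that does not depend on the split. The other 9 genes shared at most 6.55% of their 31-base words with any other gene.

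**Figure D2:**
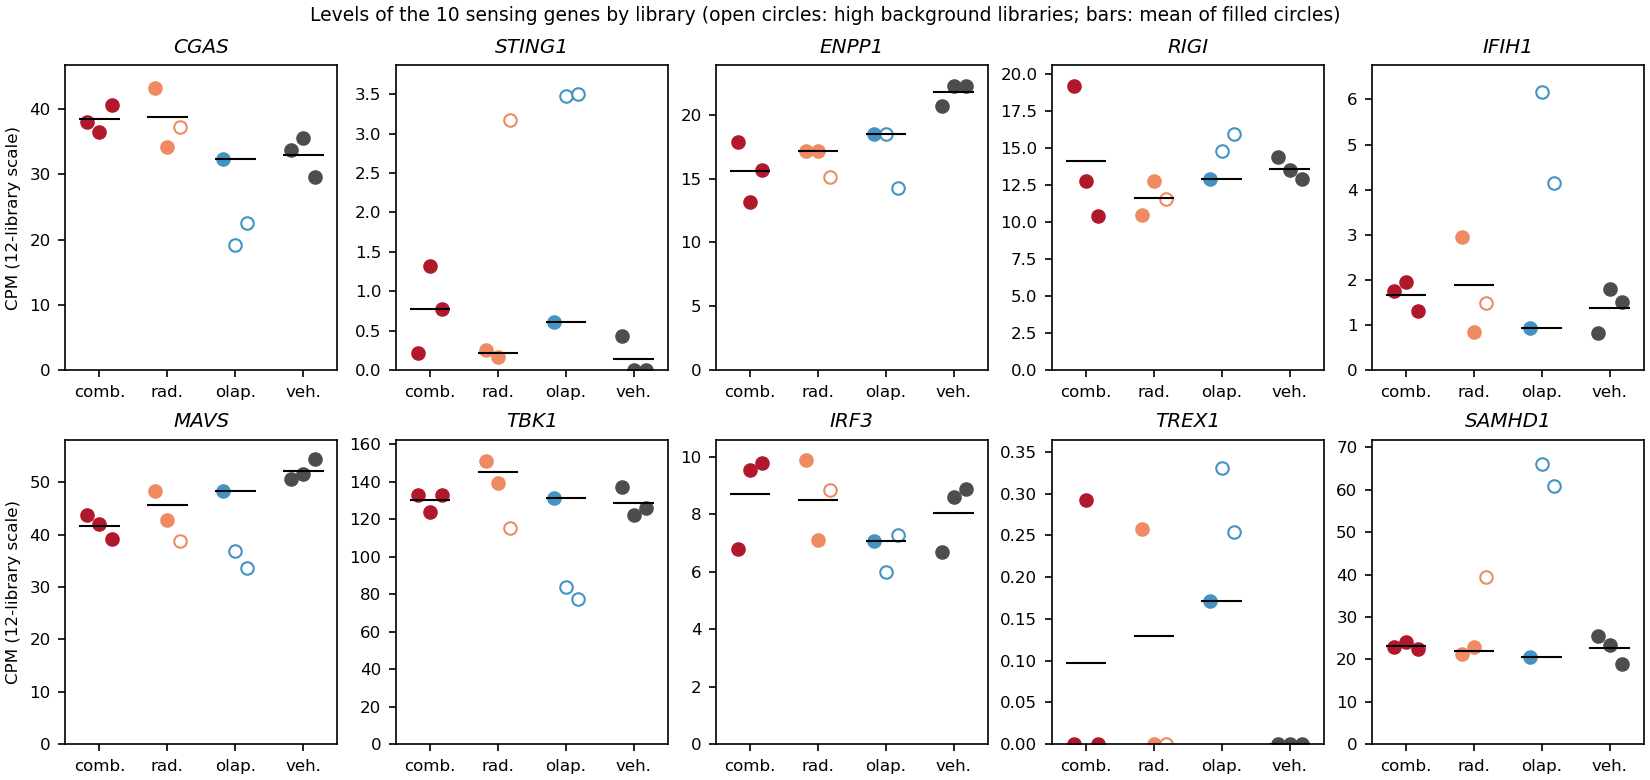
Level of each gene in every library, in CPM on the scale of all 12 libraries (1.09 to 1.10 times the values in the text), with filled circles for the 9 libraries tested, bars for their means and open circles for the 3 high background libraries. MAVS and ENPP1 have all filled treated circles below vehicle, and STING1 and SAMHD1 have open circles above all filled ones.

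Over the comparisons, 2 of the 9 genes that passed the count filter were called in combination versus vehicle, both lower, where edgeR called 4.8% of all genes tested. In the same comparison 3 of the 9 had libraries that did not overlap (CGAS above, MAVS and ENPP1 below), against 19.5% of all genes. edgeR called 0 of 9 in radiation versus vehicle (1.1% of all genes, 1 of the 9 at an unadjusted p under 0.05), 0 in olaparib versus vehicle (0.0678%, 0 unadjusted) and 0 in combination versus radiation (0.568%, 0 unadjusted). DESeq2 and limma-voom also called 0 in these 3. The single edgeR quasi-likelihood test over the 4 groups called 0 of 9, against 4.25% of all genes, with adjusted p-values of 0.191 for MAVS and 0.197 for ENPP1. The median change of the 9 in combination versus vehicle was 0.06, beside 0.02 for all genes.

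**Figure D3:**
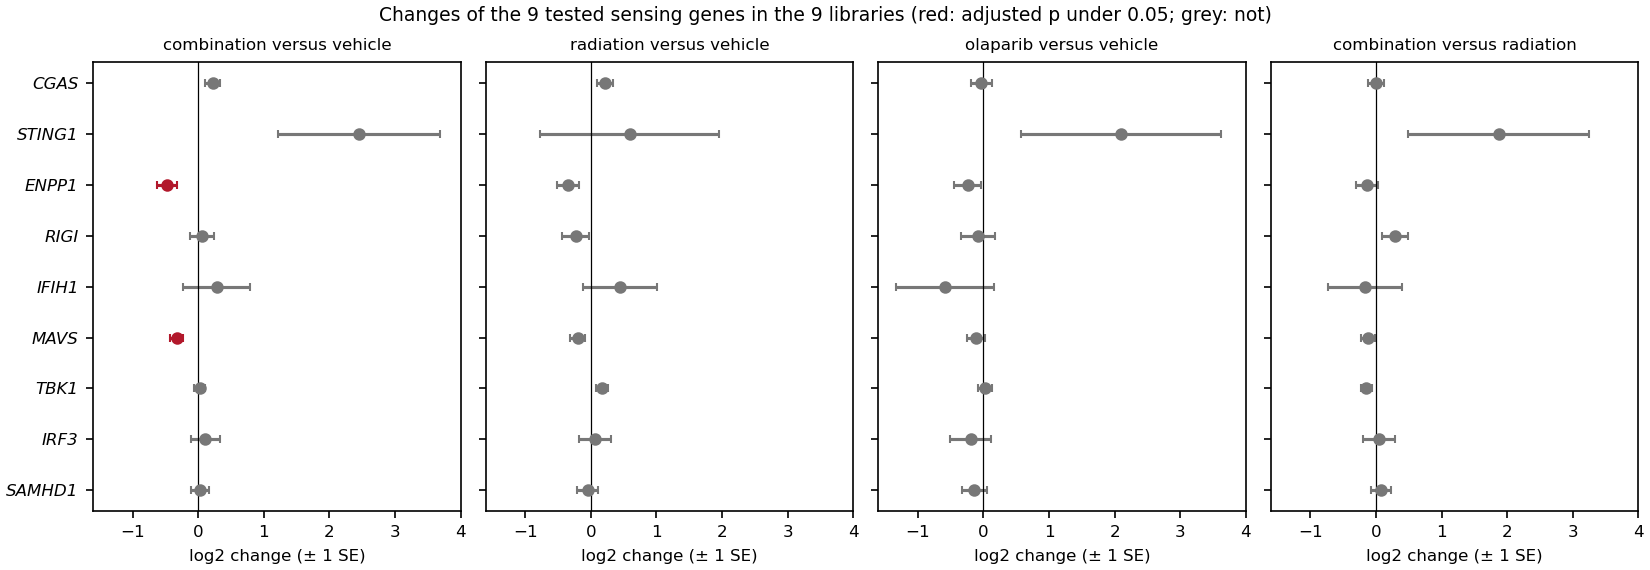
Log2 changes of the 9 tested genes in 4 comparisons over the 9 libraries; dots are the fitted changes, bars ± 1 SE, and red marks an adjusted p under 0.05. MAVS (-0.33) and ENPP1 (-0.48) are red in combination versus vehicle, and STING1 has the widest bars.

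In the 3 high background libraries the 10 genes did not move as one. On the scale of all 12 libraries, SAMHD1 had 66.1 and 61 CPM in olaparib 2 and 3 and 39.4 CPM in radiation 3, against 18.9 to 25.5 CPM in the other 9. STING1 had 3.48, 3.51 and 3.17 CPM, against 0 to 1.32 CPM. IFIH1 was high in olaparib 2 and 3 (6.17 and 4.15 CPM) but not in radiation 3 (1.49 CPM), against 0.81 to 2.94 CPM. TBK1 went the other way, with 83.6, 77.2 and 115 CPM in these libraries against 122 to 151 CPM in the other 9. So did MAVS, with 36.9, 33.7 and 38.9 CPM against 39.2 to 54.4 CPM. ENPP1, at 14.3 to 18.5 CPM, lay within the range of the other 9 (13.2 to 22.3 CPM). CGAS was low in olaparib 2 and 3 (19.2 and 22.5 CPM, against 29.6 to 43.3 CPM in the 9) and within that range in radiation 3 (37.3 CPM). With all 12 libraries the change in olaparib versus vehicle was 1.12 for SAMHD1 (adjusted p = 0.131) and 1.44 for IFIH1 (0.162), against -0.14 and -0.58 in the 9.

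The genes around the core were mostly expressed and mostly did not pass. Of 166 further genes in 10 lists, 154 were tested. In combination versus vehicle 3 were higher and 9 lower, where edgeR called 4.8% of all genes in either direction. Radiation versus vehicle had 2 higher and 1 lower (1.1% of all genes called). In olaparib versus vehicle 1 was lower (0.0678%), and in combination versus radiation 1 was lower (0.568%). Among 11 DNA sensors beside cGAS, 3 fell in combination versus vehicle, where 4.8% of all genes were called and 1010 of 30967 were lower. They were HNRNPA2B1, an RNA-binding protein also described as a nuclear sensor of viral DNA (490 against 688 CPM; log2 -0.49, SE 0.0635, adjusted p = 1.71e-08), and the Ku subunits XRCC5 (151 against 203 CPM; -0.43, adjusted p = 2.22e-05) and XRCC6 (293 against 343 CPM; -0.23, adjusted p = 0.0247), which bind DNA ends. XRCC6 lost its call in 7 of 19 alternatives, among them those without combination 2 or 3 or vehicle 2 or 3 (adjusted p = 0.0637 to 0.108). With all 12 libraries, edgeR called no list gene named here for combination versus vehicle, and only 1 of all genes. HNRNPA2B1 also fell in radiation versus vehicle (510 against 688 CPM; -0.43, adjusted p = 4.23e-05), and XRCC5 in combination versus radiation (151 against 189 CPM; -0.32, adjusted p = 0.0386). In the lone olaparib library HNRNPA2B1 was at 526 CPM, a log2 change of -0.39 against vehicle. The DNA sensor IFI16 was at 1.37 CPM in the combination and 0.819 CPM in vehicle (log2 0.73, SE 0.581, adjusted p = 0.683).

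Of 20 genes for STING transport, turnover and cyclic dinucleotide passage, 1 rose and 2 fell in combination versus vehicle, against 4.8% of all genes called in either direction. LRRC8D, a subunit of volume-regulated channels, rose in the combination (12.2 against 6.96 CPM; 0.81, SE 0.19, adjusted p = 0.00303) and in radiation (12.9 against 6.96 CPM; 0.89, SE 0.206, adjusted p = 0.00932). Passage of cGAMP was not measured. The cargo receptor TMED10 was among those that fell (61 against 84 CPM; -0.46, SE 0.0844, adjusted p = 6.55e-05). RNF26, a ubiquitin ligase that acts on STING, was lower in the lone olaparib library (9.91 against 20 CPM; -1.01, SE 0.227, adjusted p = 0.0464). None of 18 partners and regulators of RIG-I and MDA5 passed by edgeR in any comparison. Among them DHX58, which encodes the related LGP2, was at 0.971 CPM in the combination and 1.2 CPM in vehicle.

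Of 17 adapters and kinases around TBK1, 1 fell in combination versus vehicle, where edgeR called 4.8% of all genes. It was the RNA helicase DDX3X (165 against 200 CPM, log2 -0.28, adjusted p = 0.0116). Its call was kept in 15 of 19 alternatives and lost without combination 1 (adjusted p = 0.176), with library size only (-0.08, 0.669) and in both fits of all 12 libraries. IKBKE, the close relative of TBK1, was at 0.356 CPM in the combination and 0.235 CPM in vehicle (adjusted p = 0.94). Of 10 interferon and NF-kB transcription factors, 1 rose and 1 fell in combination versus vehicle, beside the same 4.8% of all genes. JUN rose in the combination (10.2 against 4.77 CPM, log2 1.09, SE 0.223, adjusted p = 0.000471) and in radiation (8.84 against 4.77 CPM, log2 0.89, adjusted p = 0.0475). Its partner on the IFNB1 enhancer, ATF2, fell in the combination (108 against 128 CPM; -0.25, adjusted p = 0.045), a call kept in 7 of 19 alternatives and lost without any combination library, vehicle 1, vehicle 3 or the olaparib library (adjusted p = 0.0505 to 0.246). None of 19 genes for clearing self nucleic acids passed. Among them ADAR, which edits double-stranded RNA, was at 248 CPM in the combination and 262 CPM in vehicle.

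Of 16 other responders to double-stranded RNA and Toll-like receptor genes, 15 were tested. In combination versus vehicle 1 of these was called, where edgeR called 4.8% of all genes. The RNA helicase DHX9 fell in combination versus vehicle (104 against 128 CPM; -0.30, adjusted p = 0.00833). Its call was kept in 14 of 19 alternatives and lost without combination 1 (adjusted p = 0.114) or vehicle 3 (0.0562), with library size only (-0.10, 0.55) and in both fits of all 12 libraries. MYD88, the adapter of Toll-like receptors, passed the test over the 4 groups (adjusted p = 0.0223), at 1.25 CPM in the combination, 0.298 CPM in radiation, 0.0526 CPM in olaparib and 1.22 CPM in vehicle. The olaparib value of MYD88 comes from the lone olaparib library and lies below 0.0788 CPM, the level of 3 counts there. MYD88 passed in none of the comparisons between single groups. TLR3 was at 0.759 CPM in the combination and 0.214 CPM in vehicle (log2 1.80, SE 0.853, adjusted p = 0.3). The enzyme RNA polymerase III can turn cytosolic DNA into a RIG-I ligand. Of 10 of its subunits and partners, 1 was called in combination versus vehicle, beside 4.8% of all genes. This was POLR3C, which rose (18 against 12.2 CPM, log2 0.56, adjusted p = 0.0245). That call was lost without combination 2 (0.41, adjusted p = 0.258), combination 3 (0.0954) or vehicle 2 (0.176) and with all 12 libraries.

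**Figure D4:**
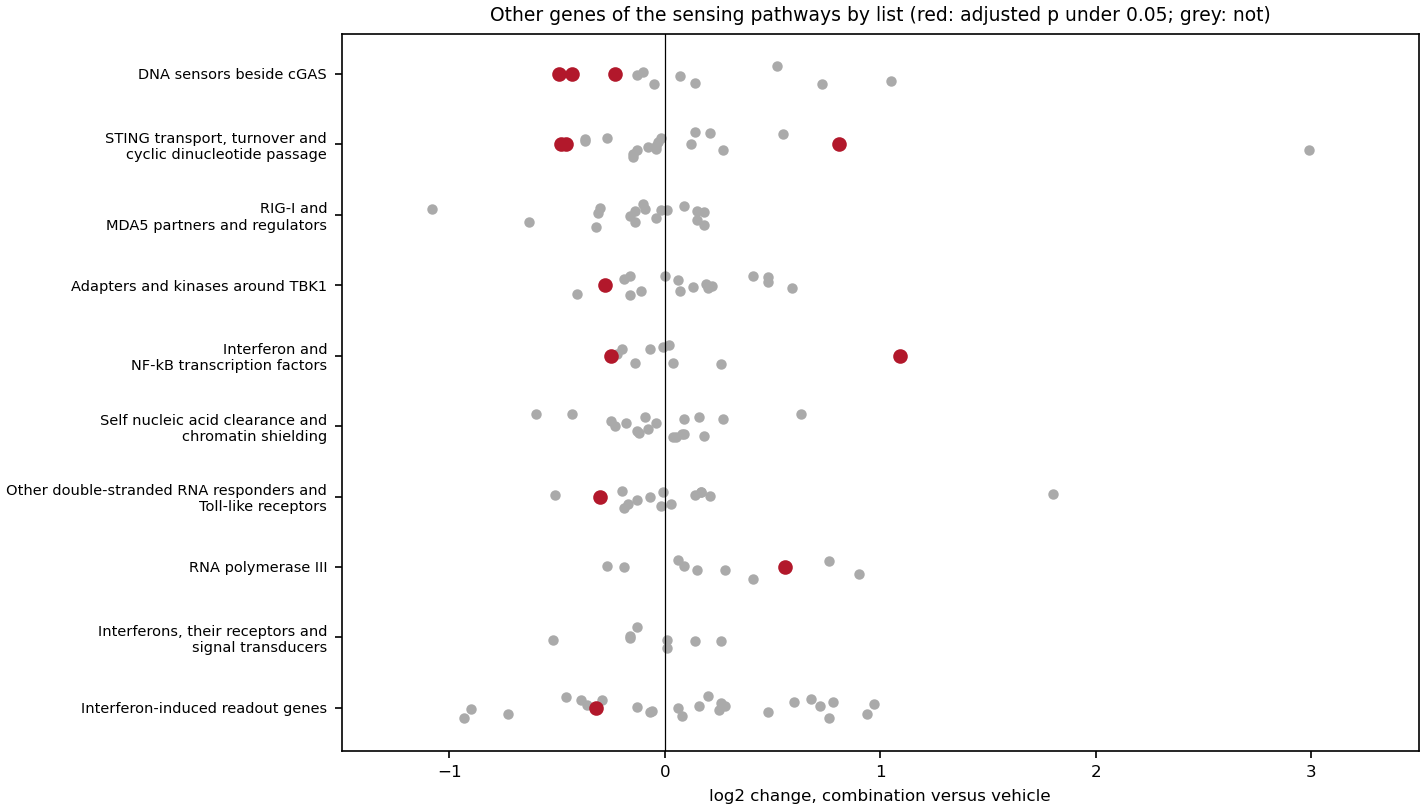
Log2 changes in combination versus vehicle of the 154 tested genes of the 10 lists, 1 dot per gene; red dots passed an adjusted p of 0.05. Of these genes, 3 rose and 9 fell, where 4.8% of all genes were called in either direction. The lists of RIG-I partners, nucleic acid clearance and interferon signalling have no red dot.

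The output end of the pathway had almost no counts for the ligands, while both subunits of the type I interferon receptor were expressed. IFNB1 had 0 counts in each combination, radiation and vehicle library of the 9, where 3 counts correspond to between 0.095 and 0.146 CPM, and 3 counts in olaparib 1. IFNA1, IFNA2, IFNL2, IFNL3, CXCL10 and CXCL11 had 0 counts in each of the 9, and IFNL1 had at most 1 count. Of the 16 interferon, receptor and transducer genes 8 were tested and none passed in any comparison. The receptor subunit IFNAR1 was at 23.6 CPM in the combination and 25.9 CPM in vehicle (log2 -0.13, SE 0.133, adjusted p = 0.787), and IFNAR2 at 7.24 CPM in the combination and 7.19 CPM in vehicle. IFNLR1, the specific receptor subunit for interferon lambda, had 0.0158 CPM in the combination and 0.0653 CPM in vehicle and was too low to be tested.

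Of 29 interferon-induced readout genes, 26 were tested, with 18 at 1 CPM or more in vehicle. In combination versus vehicle edgeR called 0 higher and 1 lower, beside 4.8% of all genes in either direction. It called 0 in the other 3 comparisons. The lower one was MX2, an interferon-induced GTPase (39.5 against 49.3 CPM; -0.32, SE 0.102, adjusted p = 0.0485), a call kept in 6 of 19 alternatives and lost without combination 1 or 3, vehicle 2 or 3 or the olaparib library (adjusted p = 0.0606 to 0.3). ISG15, a ubiquitin-like modifier, was at 2.62 CPM in the combination, 3.17 CPM in radiation, 1.79 CPM in olaparib and 1.64 CPM in vehicle (0.68, SE 0.39, adjusted p = 0.454 in combination versus vehicle; 0.96, SE 0.423, adjusted p = 0.418 in radiation). IFIT1, which binds foreign RNA caps, was at 3.84 CPM in the combination and 5.29 CPM in vehicle (-0.46, SE 0.287, adjusted p = 0.517), and MX1 at 7.01 CPM in the combination and 8.6 CPM in vehicle (-0.29, SE 0.211, adjusted p = 0.623). CCL5, a chemokine gene downstream of IRF3, was at 0.223 CPM in the combination and 0.182 CPM in vehicle (0.28, SE 1.41, adjusted p = 0.979). The median change of the 26 genes was 0.12 for the combination over vehicle, beside 0.02 for all genes, and -0.04 for radiation over vehicle, beside -0.03.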

How the data were processed

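The values deposited by the authors are expected counts (estimated counts per Ensembl gene, 68.8% of them whole to within 1e-06). Per the submitters' processing notes, kallisto 0.46.1 and DESeq2 were used; the sources used here name no transcript release, genome build or strand setting, and an estimate can split a read between overlapping genes. Counts on 44 pseudoautosomal Y rows were added to their X partners, values were rounded, and 60463 of 60605 genes had a symbol.

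All genes were tested in R 4.3.3 with edgeR 4.0.16 on 9 libraries: default count filter (30967 genes), TMM scaling, a mean for each group, and robust quasi-likelihood tests. P-values were adjusted by Benjamini-Hochberg across all genes tested, with a threshold of 0.05. SE is the log2 change over the square root of F. The procedure was tested on simulated counts for combination versus vehicle only, with changes larger than those of MAVS and ENPP1. That test does not cover smaller changes or the comparison with the lone olaparib library. Intervals and limits from 0 counts (3 counts) cover counting error or the fitted spread only. Total counts were 14300459 to 38804959 per library. Replicate libraries differed by more than counting noise. Alternatives used DESeq2 1.42.0, limma 3.58.1, other scalings, filters and library sets.

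The members, lists and the decision to keep 3 libraries apart were chosen with earlier results of these data known. Named were the 10 members, preset marker genes of the routes (IFNB1, IFNL1, CXCL10, CCL5, IFIT1, ISG15, MX1, IFI16, IKBKE, DHX58 and TLR3) and list genes past the threshold. Other genes (IFNAR1, IFNAR2, IFNLR1, ADAR, the interferons at 0 and CXCL11) were named after their values were seen. Some genes that the rule names are not reported here.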

Additional observations from a re-analysis of the deposited data

Results flagged for a closer look

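The 3 high background libraries, which the comparisons do not use, held several of the sensing genes above the highest vehicle library, on the scale of all 12 libraries. SAMHD1 had 66.1, 61 and 39.4 CPM in olaparib 2, olaparib 3 and radiation 3, where the highest vehicle library had 25.5 CPM. STING1 had 3.48, 3.51 and 3.17 CPM in the same libraries, where the highest vehicle library had 0.426 CPM. IFIH1 had 6.17 and 4.15 CPM in olaparib 2 and 3 (highest vehicle library 1.8 CPM), and RIGI 14.8 and 16 CPM (14.4 CPM). TREX1 had 0.331 and 0.254 CPM in olaparib 2 and 3 (0 in vehicle), which are 8 and 6 counts. CGAS had 37.3 CPM in radiation 3 (35.6 CPM).

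Markers of other cell types moved with these values. The sum of 4 endothelial markers was 32.3, 30.6 and 12.1 CPM in olaparib 2, olaparib 3 and radiation 3, against 1.24 to 3.84 CPM in the other 9. The sum of 5 fibroblast markers was 43, 48.4 and 26.6 CPM, against 17.1 to 23.2 CPM. The sum of 8 leukocyte markers was lower, at 66, 63.7 and 78.1 CPM, against 89.4 to 111 CPM. Most of that sum was CD68 in the vehicle libraries, so it does not show how the other leukocyte markers moved. No marker of these 3 lists was at 0 in the 3 libraries. In the other 9, the leukocyte markers CD3E, LYZ, CD14 and ITGAM were each at 0 in several. The part of these markers, and of the background, in the values above was not tested.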

How the results depend on the processing

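In combination versus vehicle, 2 of the sensing genes were called, and the count was 2 in 9 of 19 alternatives. It was 1 with DESeq2 size factors (MAVS) and 0 with limma-voom, all 12 libraries, or all 12 with the olfactory receptor sum as a covariate, and it ran from 0 to 2 when 1 library was left out. With library size only it was again 2, but these were CGAS and TBK1, both higher, as the median of all genes moved to 0.22. The replicate block left the count at 2 (MAVS and ENPP1) and changed no other call of a sensing gene. Deviations of same-numbered libraries from their group means showed no shared pattern (r = -0.06 to 0.01). With so few libraries per group, these values cannot settle whether the numbers pair the samples. The test over the 4 groups called 0, and 1 (CGAS) with library size only. The counts of 0 in the other 3 comparisons held in every alternative that could be run. Leaving out olaparib 1 gives no olaparib comparison. The fit to all 12 libraries called 0 of all genes in these 3 comparisons, so its counts of 0 say nothing about the sensing genes. The changes of MAVS and ENPP1 were negative in all 38 alternative values and called in 18. Of 631 alternative values of the 34 changes not called, 3 were called and 40 had the other sign. The cause of these differences was not tested. STING1 and IFNB1 rest on few or no counts in most libraries, and TREX1 on an undetermined split with ATRIP.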

Other observations

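The contrast that asks whether olaparib and radiation acted together, (combination minus radiation) minus (olaparib minus vehicle), was added after the data were seen and rests on the lone olaparib library. No sensing gene passed. The values were -0.01 (SE 0.178) for MAVS, 0.11 (SE 0.269) for ENPP1, 0.03 (SE 0.198) for CGAS, 0.37 (SE 0.327) for RIGI and -0.17 (SE 0.137) for TBK1, with adjusted p-values of 0.862 to 1 by edgeR.

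Interferon and interferon-induced chemokine genes that had 0 counts in the 9 libraries carried a few counts in the high background libraries. In olaparib 2, olaparib 3 and radiation 3, IFNL2 was counted 16, 15 and 7 times, IFNL3 had 6, 7 and 4, CXCL11 had 11, 7 and 7, and CXCL10 had 6, 5 and 2.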
